A study of Citrus x clementina and Citrus japonica with 6 samples.

Results

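The genes for antenna proteins, photosystem subunits and electron carriers were examined in fruit of Clementine mandarin (Citrus x clementina) and kumquat (labelled Citrus japonica). The members were the gene models whose first KEGG orthology name holds light-harvesting complex, photosystem I, photosystem II, plastocyanin, cytochrome b6 or ferredoxin, which gave 102 of 30139 models. RNA was measured by RNA-seq in 6 libraries, 3 per species, from untreated fruit grown in one breeding centre's fields. Fruit of 5 ages was pooled for each library, with 15, 30 and 45 days from flowering sampled in both species, then days 100 and 180 for clementine but days 80 and 120 for kumquat. Species and the 2 later ages therefore cannot be told apart, and a pool does not show at which age a gene differed. The ages in the kumquat labels are worded as those of clementine fruit, while the cultivar label says kumquat. Material came from 3 plants, but the labels do not tie a library to a plant, and p-values then measure the spread between libraries only.

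Photosynthesis in plants starts in the thylakoid membranes of the chloroplast. Antenna proteins (LHCA around photosystem I, LHCB around photosystem II) bind chlorophyll and pass light energy to the photosystems, photosystem II splits water, the cytochrome b6-f complex and plastocyanin carry electrons on, and photosystem I reduces ferredoxin, from which ferredoxin--NADP+ reductase (FNR) makes NADPH. Young citrus fruit is green and its peel holds chloroplasts, which turn into chromoplasts as the fruit colours. Antenna proteins and a part of the small photosystem subunits are encoded in the nucleus, whereas the large chlorophyll-binding core proteins are encoded in the plastid.

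The values are FPKM, which corrects fragments for the length of the model and the size of the library, so that models can be compared in level. A log2 change is the kumquat mean less the clementine mean of log2(FPKM + 1), and it is too small for weakly expressed models. A model was tested when it reached 1 FPKM in at least 3 libraries, and called at an adjusted p under 0.05 (limma, Benjamini-Hochberg over all 22050 models tested). Of the 102 members 83 were tested, 68 of them at 1 FPKM or more in all 6 libraries and 1, the LHCA3 model Ciclev10002711m, in clementine libraries only. The 19 untested members reached at most 2.45 FPKM in any library. Members with a mean of 10 FPKM or more in a species, or called at 2-fold with a mean of 5 or more, are named by rule, and the few lower ones that are named were picked after their values were seen. Short names such as PsaD or PsbQ are the usual names of the subunits that the KEGG names describe. Of the members 92 had a hypothetical protein as best match, so the names rest on KEGG. Of the 67 antenna and photosystem members, 24 also carried a GO term of photosystem, thylakoid, photosynthesis or chloroplast. In a bulk library, fewer cells of a type and less RNA per cell cannot be told apart. The model IDs carry the prefix Ciclev, and many best matches are Citrus clementina proteins. Whether kumquat fragments were assigned to these models as fully as clementine fragments, and to the same copy, was not tested.

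Most antenna and photosystem genes that differed were lower in kumquat fruit, and a few abundant ones were higher. Of the 83 tested members, 33 were lower in kumquat, 14 higher and 36 not called. That is 39.8% lower, where 27.1% of all models tested were, and 16.9% higher, where 29.9% were. The 47 calls in either direction were 56.6% of the members tested, near the 57.1% of all models. Since Ciclev10002711m passed the filter only where it was high, its call, lower and just past 2-fold, carries no weight, and without it 32 members were lower, 11 of them by 2-fold. Of all 20289 models left by the same exclusion, 5029 were lower, 1806 of them by 2-fold. The number of higher calls among the members fell to 9 without clementine replicate 1, 8 without clementine replicate 2 and 9 without kumquat replicate 3. By at least 2-fold, 12 members were lower and 3 higher, against 12.1% and 12.4% of all models. The median log2 change was -0.19 over the members and 0.04 over all models. Among the 33 members with a mean of 100 FPKM or more in a species, 19 were lower and 6 higher, against 39.4% and 36.6% of all models at that level. The kumquat libraries all lay below the clementine libraries in 33 tested members and all above them in 13, where 30.4% and 33.5% of all models did so.

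Summed over the 102 members, the level was 13021, 14389.9 and 14240 FPKM in the clementine libraries and 11119, 11909.7 and 12534 in kumquat. Every kumquat library was below every clementine library. These sums were 1.87, 2.05 and 2.04% of the FPKM sum of each clementine library and 1.61, 1.70 and 1.77% in kumquat, a mean level in kumquat 0.854 times that in clementine. The ratio of kumquat to clementine differed between the role groups. Photosystem II subunits without the extrinsic proteins summed to 1264, 1412 and 1444 FPKM in clementine and 724, 818 and 854 in kumquat, the lowest ratio of the larger groups at 0.582. LHCA proteins had a ratio of 0.793, photosystem I subunits 0.806 and ferredoxins 0.758. LHCB proteins had a ratio of 0.927 and the extrinsic proteins of photosystem II 0.951, and the libraries of the species overlapped in both. Cytochrome b6-f models (1.27) and enzymes that only use ferredoxin (1.24) were above 1.

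**Figure D1:**
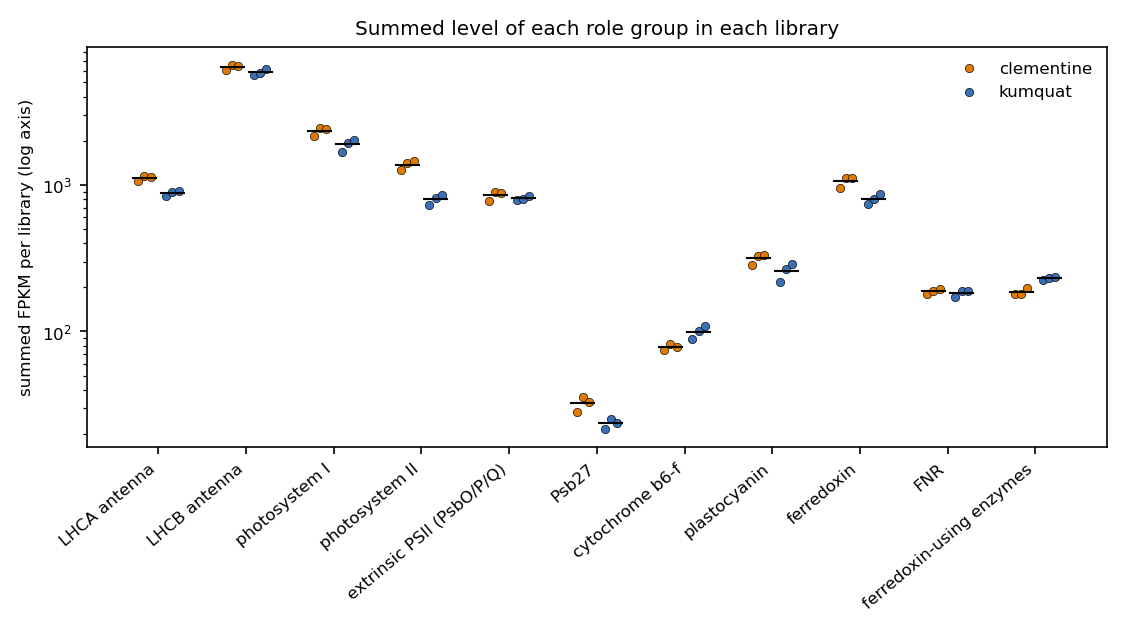
Summed FPKM of each role group (x axis) in each library (y axis, log scale), with points for the 3 libraries per species and a bar for their mean. Photosystem II subunits show the widest gap among the larger groups, from 1264 to 1444 in clementine and 724 to 854 in kumquat, while the extrinsic proteins and LHCB overlap.

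Ratios between role groups within a library differed as well. LHCB over LHCA was 5.698, 5.694 and 5.706 in clementine and 6.682, 6.501 and 6.807 in kumquat. LHCB over photosystem II subunits with their extrinsic proteins was 2.96, 2.85 and 2.77 in clementine and 3.72, 3.60 and 3.66 in kumquat. Photosystem I subunits over LHCA overlapped between the species, at 2.05, 2.13 and 2.13 and at 2.01, 2.16 and 2.24. These ratios are descriptions without a test.

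Libraries numbered 1 stood low for these genes in both species. Of the 56 members with a mean of at least 10 FPKM over all libraries, replicate 1 was the lowest of its species in 42 in clementine and 36 in kumquat. Among all other models at that level the shares were 35.4% and 36.2%. Without both of these libraries, 34 members were lower and 14 higher, and the ratio of the summed levels was again 0.854. The part of library 1 in single results was not tested beyond leaving it out.

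LHCA1 to LHCA4 form the belt of antenna proteins on photosystem I. LHCA3 had the lowest values relative to clementine in this group. Ciclev10002129m, its main model, was measured at 283, 314 and 312 FPKM in clementine and 129, 133 and 143 in kumquat. No kumquat library came near a clementine library, and the log2 change was -1.16 (SE 0.0637, limma adjusted p = 5.92e-06). A second LHCA3 model, Ciclev10002469m, was measured at 7.58, 6.59 and 6.65 FPKM in clementine and 1.59, 1.02 and 2.05 in kumquat, a log2 change of -1.65 (SE 0.194, limma adjusted p = 0.000265). LHCA4, Ciclev10021861m, was at 280.4, 265 and 266 FPKM in clementine and 189.9, 209 and 198 in kumquat, again without overlap. Its log2 change was -0.44 (SE 0.0547, limma adjusted p = 0.00035). LHCA2 was higher and LHCA1 was not called. LHCA2, Ciclev10031886m, was at 191, 209 and 212 FPKM in clementine and 219, 251 and 250.1 in kumquat, all kumquat libraries being higher. Its log2 change was 0.23 (SE 0.0735, limma adjusted p = 0.0295), and the call was lost with median scaling (limma adjusted p = 0.0659) and without any one of 4 libraries, clementine 1 or 2 or kumquat 2 or 3 (limma adjusted p = 0.058 to 0.097). LHCA1, Ciclev10032568m, was at 263, 317 and 292 FPKM in clementine and 269, 273 and 286 in kumquat, with overlapping libraries and no call (log2 change -0.07, SE 0.0743, limma adjusted p = 0.443).

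LHCA5, a minor antenna protein, is the name of 8 models with low values. Their sum was 27.4, 27.9 and 29.2 FPKM in clementine and 26.6, 25.7 and 24.3 in kumquat, and it was not called (log2 change -0.14, SE 0.0700, limma adjusted p = 0.129). Its most abundant model, Ciclev10000212m, was at 13.5, 12.5 and 13.8 FPKM in clementine and 12.9, 15.9 and 12.2 in kumquat (log2 change 0.03, SE 0.118, limma adjusted p = 0.85). In all, 12 of 16 LHCA models were tested, with 5 lower, 1 higher and 6 not called. These calls made 41.7% lower and 8.33% higher, beside 27.1% and 29.9% of all models. The 41.7% counts Ciclev10002711m, whose call carries no weight, and the 27.1% counts models of that kind too. The lower ones were LHCA4, the LHCA3 models, of which Ciclev10002711m had no kumquat library at 1 FPKM, and Ciclev10009205m, a second LHCA2 model at 6.64 to 7.80 FPKM in clementine and 4.33 to 5.47 in kumquat.

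LHCB1 to LHCB3 form the trimers of the main light-harvesting complex, and LHCB4 to LHCB6 are single minor antenna proteins that connect them to photosystem II. LHCB1 dominated the whole set. The LHCB1 models made up 30.1, 28.8 and 28.4% of the summed member FPKM in clementine and 33.8, 31.1 and 31.8% in kumquat. Ciclev10016287m was among the most abundant transcripts of the fruit, with rank 14 of all models in each clementine library and ranks 10, 14 and 14 in kumquat.

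The 3 abundant LHCB1 models differed in direction. Ciclev10016287m was measured at 1872, 1962 and 1920.3 FPKM in clementine and 1927, 1652 and 1793 in kumquat. The species overlapped and the change was not called (log2 change -0.10, SE 0.0729, limma adjusted p = 0.269). Without both libraries numbered 1 it was called lower, with a log2 change of -0.17 (limma adjusted p = 0.0176). Ciclev10016074m was at 1383, 1514 and 1431 FPKM in clementine and 872, 989 and 1030.2 in kumquat, lower in every kumquat library, with a log2 change of -0.58 (SE 0.0779, limma adjusted p = 0.00052). Ciclev10016286m was at 660.5, 676 and 699 FPKM in clementine and 961, 1064 and 1159 in kumquat, higher in every kumquat library, with a log2 change of 0.64 (SE 0.0762, limma adjusted p = 0.000284). Its level relative to Ciclev10016074m was 0.477, 0.446 and 0.488 in clementine and 1.10, 1.08 and 1.12 in kumquat. Summed, all LHCB1 models were at 3916, 4151 and 4049.9 FPKM in clementine and 3760.2, 3707 and 3982 in kumquat. These sums overlapped and were not called (log2 change -0.08, SE 0.0451, limma adjusted p = 0.154). Ciclev10016287m and Ciclev10016074m share their best protein match, so that fragments could be split between them in either way. The sum of that locus was lower in kumquat, at 3360.4 ± 110.4 FPKM in clementine and 2754 ± 98.9 in kumquat (± SD over 3 libraries), a log2 change of -0.29 (SE 0.0719, limma adjusted p = 0.00704).

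LHCB2, Ciclev10016280m, was at 1017, 1223 and 1207 FPKM in clementine and 939, 1137 and 1184 in kumquat and was not called (log2 change -0.08, SE 0.110, limma adjusted p = 0.549). LHCB3, Ciclev10009198m, was lower at 113, 130.1 and 129.7 FPKM in clementine and 84.2, 98.99 and 101 in kumquat, a log2 change of -0.39 (SE 0.0905, limma adjusted p = 0.00813). The minor antennae LHCB5 and LHCB6 were lower as well. LHCB5, Ciclev10021452m, was at 298, 339 and 329.6 FPKM in clementine and 248, 273 and 284 in kumquat (log2 change -0.26, SE 0.0735, limma adjusted p = 0.0177), and without clementine replicate 2 or 3 the limma adjusted p rose to 0.0676 or 0.0607. LHCB6, Ciclev10029116m, was at 324, 322 and 322 FPKM in clementine and 227, 253 and 259 in kumquat, a log2 change of -0.39 (SE 0.0606, limma adjusted p = 0.00115). LHCB7, Ciclev10006886m, a rare antenna protein, was near 10 FPKM in both species, at 10.1, 11.3 and 8.88 FPKM in clementine and 9.74, 9.26 and 9.37 in kumquat, and was not called (limma adjusted p = 0.586).

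LHCB4 had 2 expressed copies that differed in opposite directions. Ciclev10012369m, the major one, was at 289.6, 309 and 319.7 FPKM in clementine and 219.5, 240.0 and 244 in kumquat, a log2 change of -0.38 (SE 0.0626, limma adjusted p = 0.00143). Ciclev10032377m was at 70.6, 63.5 and 66.2 FPKM in clementine and 129, 119 and 119 in kumquat, a log2 change of 0.86 (SE 0.0623, limma adjusted p = 2.19e-05). The minor copy thus made 0.206 to 0.244 times the level of the major one in clementine and 0.490 to 0.588 times in kumquat. Summed, LHCB4 was at 361, 373 and 387 FPKM in clementine and 349, 359 and 363 in kumquat, and the sum was not called (log2 change -0.07, SE 0.0404, limma adjusted p = 0.194). Of 14 LHCB models 11 were tested, 6 of them lower, 2 higher and 3 not called. These calls made 54.5% lower and 18.2% higher, beside 27.1% and 29.9% of all models. The sixth lower one, Ciclev10022017m, is a second model of LHCB5 at 3.98 to 4.81 FPKM in clementine and 0.17 to 1.59 in kumquat.

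**Figure D2:**
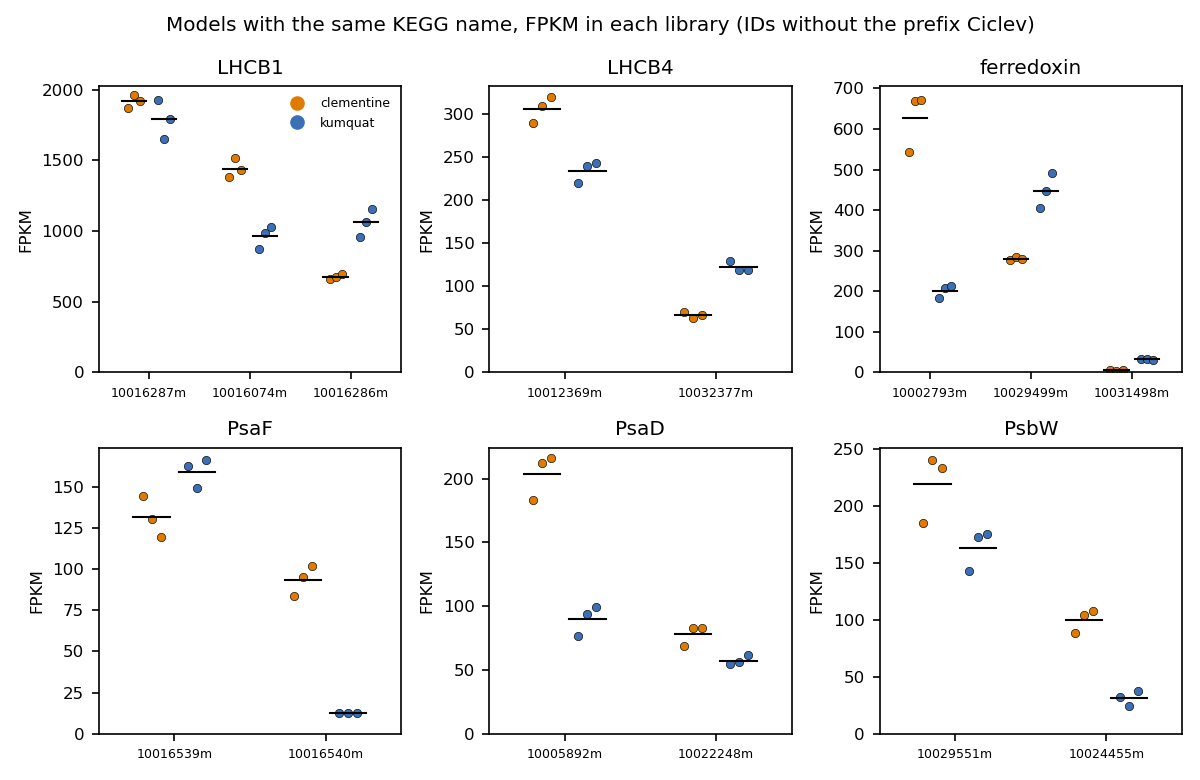
FPKM in each library (y axes, from 0) of models that carry the same KEGG name, with points for libraries and bars for the mean of 3. The LHCB1, LHCB4 and ferredoxin panels each hold a model lower and a model higher in kumquat, whereas both PsaD and both PsbW models are lower.

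Photosystem I subunits were lower or not called, apart from 1 of 2 models of PsaF. PsaD, which docks ferredoxin on the stromal side, was lower in both copies. Ciclev10005892m was at 183, 212 and 216 FPKM in clementine and 76.3, 93.7 and 99.3 in kumquat, a log2 change of -1.18 (SE 0.110, limma adjusted p = 8.25e-05). Ciclev10022248m was at 68.9, 82.7 and 82.9 FPKM in clementine and 54.7, 56.01 and 61.5 in kumquat, a log2 change of -0.44 (SE 0.0881, limma adjusted p = 0.0041). The ratio of the first to the second was 2.66, 2.57 and 2.61 in clementine and 1.40, 1.67 and 1.61 in kumquat. PsaN, a lumenal subunit that helps plastocyanin to bind, was lower too. Ciclev10002687m was at 256, 271 and 287 FPKM in clementine and 118, 123 and 131 in kumquat, with a log2 change of -1.13 (SE 0.0639, limma adjusted p = 6.75e-06).

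PsaK, PsaG and PsaO are small membrane subunits at the edge of the complex, PsaK and PsaG on the antenna sides. For PsaK, Ciclev10017170m was at 313, 360.5 and 354 FPKM in clementine and 190.3, 222 and 231 in kumquat, a log2 change of -0.68 (SE 0.0890, limma adjusted p = 0.000487). For PsaG, Ciclev10009769m was at 259.9, 289 and 262 FPKM in clementine and 221, 198 and 207 in kumquat, a log2 change of -0.37 (SE 0.0656, limma adjusted p = 0.00207). PsaO, Ciclev10029515m, was at 101, 96.4 and 104 FPKM in clementine and 89.2, 82.9 and 91.5 in kumquat. Its log2 change was -0.19 (SE 0.0587, limma adjusted p = 0.0267), and it was lost without clementine replicate 1 or 3 or kumquat replicate 2 (limma adjusted p = 0.0633, 0.0983 and 0.0978). The subunits PsaE, PsaH and PsaL were not called. PsaE, Ciclev10022750m, which helps to bind ferredoxin, was at 204, 262 and 244 FPKM in clementine and 183, 263 and 269 in kumquat (limma adjusted p = 0.997). PsaH, Ciclev10026722m, and PsaL, Ciclev10016637m, form the docking side for mobile LHCB antenna. PsaH was at 334, 379 and 367 FPKM in clementine and 333, 401 and 428 in kumquat (log2 change 0.10, SE 0.0989, limma adjusted p = 0.418) and PsaL at 216, 274 and 259.7 FPKM in clementine and 245, 332 and 339 in kumquat (log2 change 0.28, SE 0.142, limma adjusted p = 0.131). In all 3 of them library 1 of each species was the lowest. Without kumquat replicate 1, PsaH and PsaL were called higher in kumquat, with log2 changes of 0.20 and 0.43 (limma adjusted p = 0.0403 and 0.00999).

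PsaF, the lumenal plastocyanin dock, had the log2 change farthest from 0 among the 83 tested members. Ciclev10016540m was at 83.96, 95.1 and 102 FPKM in clementine and 12.5, 12.8 and 12.5 in kumquat, a log2 change of -2.80 (SE 0.0812, limma adjusted p = 3.28e-07). Ciclev10016539m, which has the same best protein match, was at 144, 130.2 and 119.7 FPKM in clementine and 162, 149 and 166 in kumquat, higher in kumquat with a log2 change of 0.28 (SE 0.0792, limma adjusted p = 0.0192). That call was lost without clementine replicate 2 or 3 or kumquat replicate 3 (limma adjusted p = 0.0567 to 0.0644). Their ratio, Ciclev10016539m over Ciclev10016540m, was 1.72, 1.37 and 1.18 in clementine and 13.03, 11.66 and 13.26 in kumquat. The sum of both was 228, 225 and 221 FPKM in clementine and 175, 162 and 179 in kumquat, a decrease with a log2 change of -0.39 (SE 0.0556, limma adjusted p = 0.000288). The sum differed far less than the first model did. Of 14 photosystem I models 12 were tested, 7 lower, 1 higher and 4 not called. These calls made 58.3% lower and 8.33% higher, beside 27.1% and 29.9% of all models.

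Of 10 models of photosystem II subunits 8 were tested. The 7 with names of nuclear-encoded subunits were lower in kumquat, and the other, which carried the name of the plastid-encoded D1 protein, was higher. These calls made 87.5% lower and 12.5% higher, beside 27.1% and 29.9% of all models. PsbS, the sensor of lumen acidity that starts heat dissipation of excess light, was lower in every kumquat library. Ciclev10002099m was at 203, 203 and 197 FPKM in clementine and 67.6, 75.2 and 77.4 in kumquat. Its clementine mean was 2.74 times its kumquat mean, a log2 change of -1.44 (SE 0.0621, limma adjusted p = 1.86e-06). PsbR, a small subunit near the water-splitting site, was the most abundant of the group. Ciclev10022793m was at 657, 728 and 771 FPKM in clementine and 392, 477 and 482 in kumquat, a log2 change of -0.68 (SE 0.0978, limma adjusted p = 0.000785). PsbW, which holds photosystem II in its larger assemblies, was lower in both copies. Ciclev10029551m was at 185, 241 and 233 FPKM in clementine and 143, 173 and 175 in kumquat, a log2 change of -0.42 (SE 0.120, limma adjusted p = 0.0193), which was lost without clementine replicate 2 or 3 (limma adjusted p = 0.0663 and 0.0639). Ciclev10024455m was at 88.6, 105 and 108 FPKM in clementine and 32.3, 24.5 and 37.7 in kumquat, a log2 change of -1.66 (SE 0.153, limma adjusted p = 7.92e-05).

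PsbY, another small membrane subunit, was at 106, 111 and 109 FPKM in clementine and 63.2, 50.4 and 60.96 in kumquat in Ciclev10032789m, a log2 change of -0.89 (SE 0.0873, limma adjusted p = 0.000108). A second PsbY model, Ciclev10022422m, was low in both species, at 2.20 to 4.19 FPKM in clementine and 0.42 to 1.33 in kumquat, and was also called lower (limma adjusted p = 0.00827). Psb28, which binds assembling photosystem II, was lower in Ciclev10022467m, at 16.7, 18.5 and 19.1 FPKM in clementine and 11.7, 11.2 and 10.7 in kumquat (log2 change -0.65, SE 0.0913, limma adjusted p = 0.0007). Psb27, an assembly factor of the lumenal side, was lower in Ciclev10016927m, at 23.4, 29.7 and 29.1 FPKM in clementine and 18.6, 21.8 and 19.6 in kumquat (log2 change -0.43, SE 0.111, limma adjusted p = 0.0124).

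The extrinsic proteins PsbO, PsbP and PsbQ shield the manganese cluster that splits water, and they did not all differ in the same direction. The main PsbQ model was lower. Ciclev10016525m was at 119.8, 132 and 129.8 FPKM in clementine and 64.01, 69.5 and 67.6 in kumquat, a log2 change of -0.91 (SE 0.0598, limma adjusted p = 1.35e-05). The main PsbP model was higher. Ciclev10032502m was at 320.1, 345 and 349 FPKM in clementine and 429, 395 and 413 in kumquat, all kumquat libraries being above all clementine libraries, with a log2 change of 0.29 (SE 0.0574, limma adjusted p = 0.00387). PsbO, Ciclev10026034m, was at 299, 374 and 362 FPKM in clementine and 262, 306 and 321 in kumquat, with overlap and no call (log2 change -0.22, SE 0.107, limma adjusted p = 0.121). It was called lower without clementine replicate 1 (limma adjusted p = 0.0272) and without both libraries numbered 1 (limma adjusted p = 0.00425). A minor PsbP model, Ciclev10032564m, was lower at 8.17, 12.6 and 11.5 FPKM in clementine and 6.21, 6.96 and 5.65 in kumquat (limma adjusted p = 0.0117), and another, Ciclev10001887m, was at 14.98, 11.8 and 13.1 FPKM in clementine and 12.4, 10.7 and 12.7 in kumquat and not called (limma adjusted p = 0.343). Of 11 models with these KEGG names 9 were tested, 2 lower, 1 higher and 6 not called. These calls made 22.2% lower and 11.1% higher, both below the 27.1% and 29.9% of all models. One of the names covers related proteins, since 2 models of the PsbQ name had a lumenal subunit of the NDH complex as best match. Of these, Ciclev10009429m was at 4.94 to 5.53 FPKM in clementine and 4.41 to 5.27 in kumquat, and was not called.

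**Figure D3:**
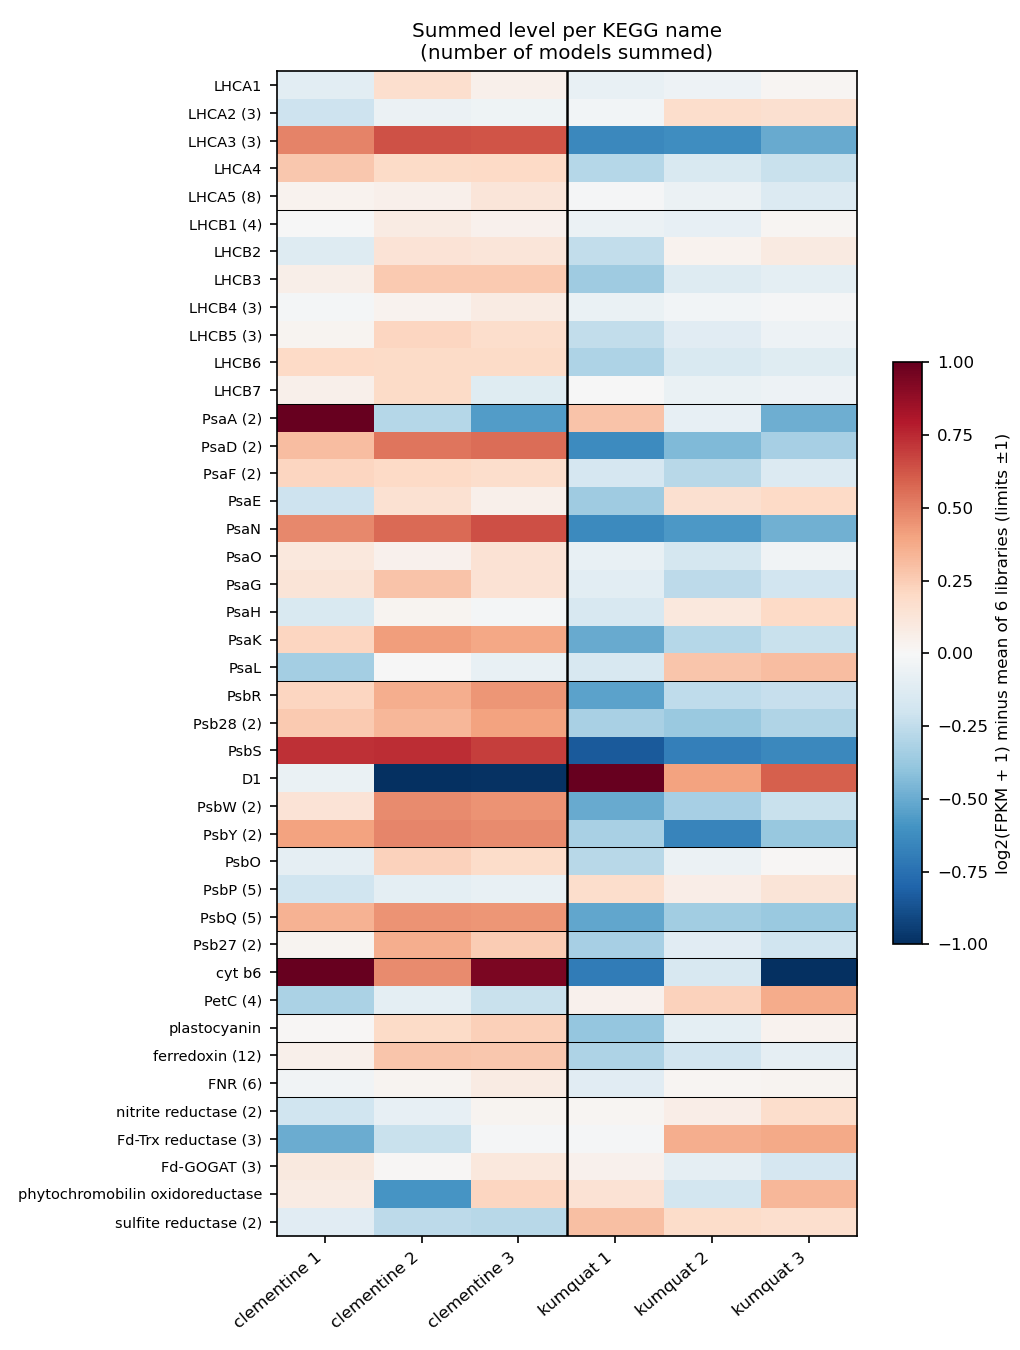
Level of each KEGG name with its models summed (rows, number of models in brackets) in each library (columns), as log2(FPKM + 1) minus the mean of the 6 libraries, with colours limited to ±1. PsbS, LHCA3, PsaN, PsaD and PsbY are blue in all kumquat libraries, PsbP and sulfite reductase are red there, and the low rows PsaA, D1 and cyt b6 vary within a species.

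Of the members, 6 carry names of plastid-encoded proteins (PsaA, PsaB, CP47, D1 and cytochrome b6), and their levels stayed at or under 13.2 FPKM in every library. Their sum was 19.5, 7.33 and 10.8 FPKM in clementine and 18.0, 12.5 and 9.50 in kumquat, with wide scatter within a species. The D1 model, Ciclev10023978m, was at 4.67, 1.56 and 1.99 FPKM in clementine and 13.2, 6.84 and 7.97 in kumquat (log2 change 1.51, SE 0.345, limma adjusted p = 0.00732). The cytochrome b6 model, Ciclev10003393m, was at 7.35, 3.87 and 5.72 FPKM in clementine and 1.15, 2.13 and 0 in kumquat (log2 change -1.78, SE 0.422, limma adjusted p = 0.00854). Whether these rows hold plastid transcripts or nuclear copies was not tested, and how RNA was selected for the libraries is not given in the sources used here.

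Among the electron carriers between and after the photosystems, the nuclear Rieske iron-sulfur subunit of cytochrome b6-f (PetC) was higher in kumquat. Its model Ciclev10016710m was at 30.3, 35.4 and 39.1 FPKM in clementine and 57.8, 46.3 and 57.97 in kumquat, a log2 change of 0.61 (SE 0.121, limma adjusted p = 0.00357). Ciclev10016706m, with the same protein match, was at 34.8, 42.5 and 31.6 FPKM in clementine and 26.6, 51.5 and 50.2 in kumquat and was not called alone (limma adjusted p = 0.555), though it was called higher without kumquat replicate 1 (limma adjusted p = 0.014). With the models of that match summed, PetC was at 66.5, 77.9 and 71.3 FPKM in clementine and 86.5, 97.8 and 108 in kumquat, without overlap, and its log2 change was 0.43 (SE 0.0910, limma adjusted p = 0.00283). Plastocyanin, the copper protein that brings electrons to photosystem I, was encoded by 1 model, Ciclev10002698m, at 286, 325 and 335 FPKM in clementine and 217, 265 and 290.5 in kumquat. Its libraries overlapped, and the test just missed the threshold (log2 change -0.30, SE 0.113, limma adjusted p = 0.0549). It was called with median scaling (limma adjusted p = 0.0456), without clementine replicate 1 (limma adjusted p = 0.0402) and without kumquat replicate 3 (limma adjusted p = 0.0237). The fits of summed KEGG names and loci also called it (limma adjusted p = 0.0428 and 0.0363), with the same log2 change and an SE of 0.107 in both.

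Ferredoxins are small iron-sulfur proteins that hand electrons from photosystem I to FNR and other enzymes, and a different ferredoxin model led in each species. Ciclev10002793m was at 544, 669 and 673 FPKM in clementine and 184, 207 and 214 in kumquat, a fall with a log2 change of -1.63 (SE 0.0985, limma adjusted p = 9.28e-06). Ciclev10029499m was at 277, 285 and 280.0 FPKM in clementine and 405, 448 and 491 in kumquat, a rise with a log2 change of 0.67 (SE 0.0734, limma adjusted p = 0.000191). The first made up 56.8, 59.9 and 60.7% of the summed ferredoxin FPKM in clementine and 24.8, 25.7 and 24.7% in kumquat. The second made up 28.9, 25.5 and 25.3% in clementine and 54.6, 55.6 and 56.8% in kumquat. Their protein matches name different loci. Plants hold ferredoxins of leaf type, for photosynthesis, and of root type, for tissues that do not photosynthesise, and the annotation does not say which type either model is.

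Another ferredoxin model, Ciclev10031498m, had the highest log2 change of the tested members. It was at 5.12, 4.03 and 5.80 FPKM in clementine and 32.7, 33.3 and 30.8 in kumquat, with a log2 change of 2.49 (SE 0.127, limma adjusted p = 4.18e-06). Lower models were also called. Ciclev10017081m was at 21.99, 20.8 and 19.8 FPKM in clementine and 12.8, 10.9 and 13.99 in kumquat (limma adjusted p = 0.00105) and Ciclev10016190m at 2.91, 4.05 and 2.92 FPKM in clementine and 1.12, 1.38 and 1.22 in kumquat (limma adjusted p = 0.00369), both lower in kumquat. A locus with 2 models had calls in both directions. Ciclev10017078m was lower, at 39.2, 42.6 and 41.2 FPKM in clementine and 29.1, 30.5 and 37.6 in kumquat (limma adjusted p = 0.0227). Ciclev10016676m was higher, at 8.43, 9.30 and 13.7 FPKM in clementine and 16.5, 14.7 and 16.2 in kumquat (limma adjusted p = 0.0217). Their sum of 51.5 ± 3.68 FPKM in clementine and 48.2 ± 4.82 in kumquat (± SD over 3 libraries) was not called (limma adjusted p = 0.353). Each of these calls was lost without any one of 4 libraries (limma adjusted p = 0.0540 to 0.0692 for Ciclev10016676m and 0.0580 to 0.0739 for Ciclev10017078m). Ciclev10032819m was at 49.3, 66.3 and 59.5 FPKM in clementine and 50.8, 45.4 and 45.1 in kumquat and not called (limma adjusted p = 0.054). Without clementine replicate 1 it was called lower (limma adjusted p = 0.0073), and without kumquat replicate 1 as well (limma adjusted p = 0.0451). The last one above 10 FPKM, Ciclev10006141m, was at 6.83 to 15.7 FPKM in clementine and 5.51 to 14.2 in kumquat. Of 12 ferredoxin models 10 were tested, 4 lower, 3 higher and 3 not called. These calls made 40% lower and 30% higher, beside 27.1% and 29.9% of all models, so the higher share was near that of all models. All 12 summed to 956, 1117 and 1109 FPKM in clementine and 742, 806 and 865 in kumquat, a decrease with a log2 change of -0.40 (SE 0.0765, limma adjusted p = 0.00268).

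FNR, which moves electrons from ferredoxin to NADP+, had no call in its 3 abundant models. Ciclev10015627m, matched to the root isozyme of the enzyme, was at 85.1, 86.1 and 95.9 FPKM in clementine and 76.2, 84.2 and 86.8 in kumquat. Ciclev10027108m was at 59.9, 68.5 and 67.4 FPKM in clementine and 62.1, 67.4 and 69.4 in kumquat and Ciclev10016124m at 32.6, 32.8 and 30.9 FPKM in clementine and 26.01, 33.4 and 27.1 in kumquat. All of them overlapped between species, with log2 changes of -0.11 (SE 0.0731, limma adjusted p = 0.232), 0.02 (SE 0.0732, limma adjusted p = 0.805) and -0.16 (SE 0.1001, limma adjusted p = 0.213). The last was called lower without kumquat replicate 2 (limma adjusted p = 0.0292). The called FNR model, Ciclev10016160m, was low, at 0.45 to 1.64 FPKM in clementine and 1.72 to 4.77 in kumquat, and its locus sum was not called (log2 change -0.02, limma adjusted p = 0.862).

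The rule also caught 11 models of enzymes that take electrons from ferredoxin for other pathways. Of the 9 tested, 0 were lower, 3 higher and 6 not called, a share of 33.3% higher beside 29.9% of all models. Sulfite reductase, an enzyme of sulfur assimilation, had Ciclev10014381m at 34.9, 26.6 and 24.5 FPKM in clementine and 52.4, 47.5 and 47.8 in kumquat (log2 change 0.77, SE 0.127, limma adjusted p = 0.00146) and Ciclev10014382m at 27.3, 29.3 and 30.97 FPKM in clementine and 30.8, 29.2 and 27.9 in kumquat (log2 change 0.01, SE 0.0755, limma adjusted p = 0.944). Both have the same locus, whose sum was higher in kumquat, at 57.8 ± 3.74 FPKM in clementine and 78.5 ± 4.10 in kumquat (± SD over 3 libraries), a log2 change of 0.44 (SE 0.0678, limma adjusted p = 0.000483). The catalytic chain of ferredoxin-thioredoxin reductase, which switches chloroplast enzymes on in the light, was at 44.2, 54.4 and 61.4 FPKM in clementine and 60.7, 81.3 and 79.98 in kumquat in Ciclev10013034m. Its libraries overlapped although it was called (log2 change 0.47, SE 0.149, limma adjusted p = 0.0303), and the call was lost without clementine replicate 1 or 2 or kumquat replicate 2 or 3 (limma adjusted p = 0.0614 to 0.0913). Nitrite reductase, of nitrogen assimilation, was at 20.8, 22.8 and 22.6 FPKM in clementine and 24.3, 26.1 and 26.2 in kumquat in Ciclev10028067m. This call was marginal (limma adjusted p = 0.0495) and was lost without each of 5 single libraries, all but kumquat replicate 1. A second nitrite reductase, Ciclev10032925m, and the ferredoxin-dependent glutamate synthase, Ciclev10004137m, were not called (limma adjusted p = 0.613 for the former and limma adjusted p = 0.0997 for the latter), though the latter was called lower without kumquat replicate 1 (limma adjusted p = 0.0353). Neither was the phytochromobilin enzyme, Ciclev10015899m (limma adjusted p = 0.526).

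**Figure D4:**
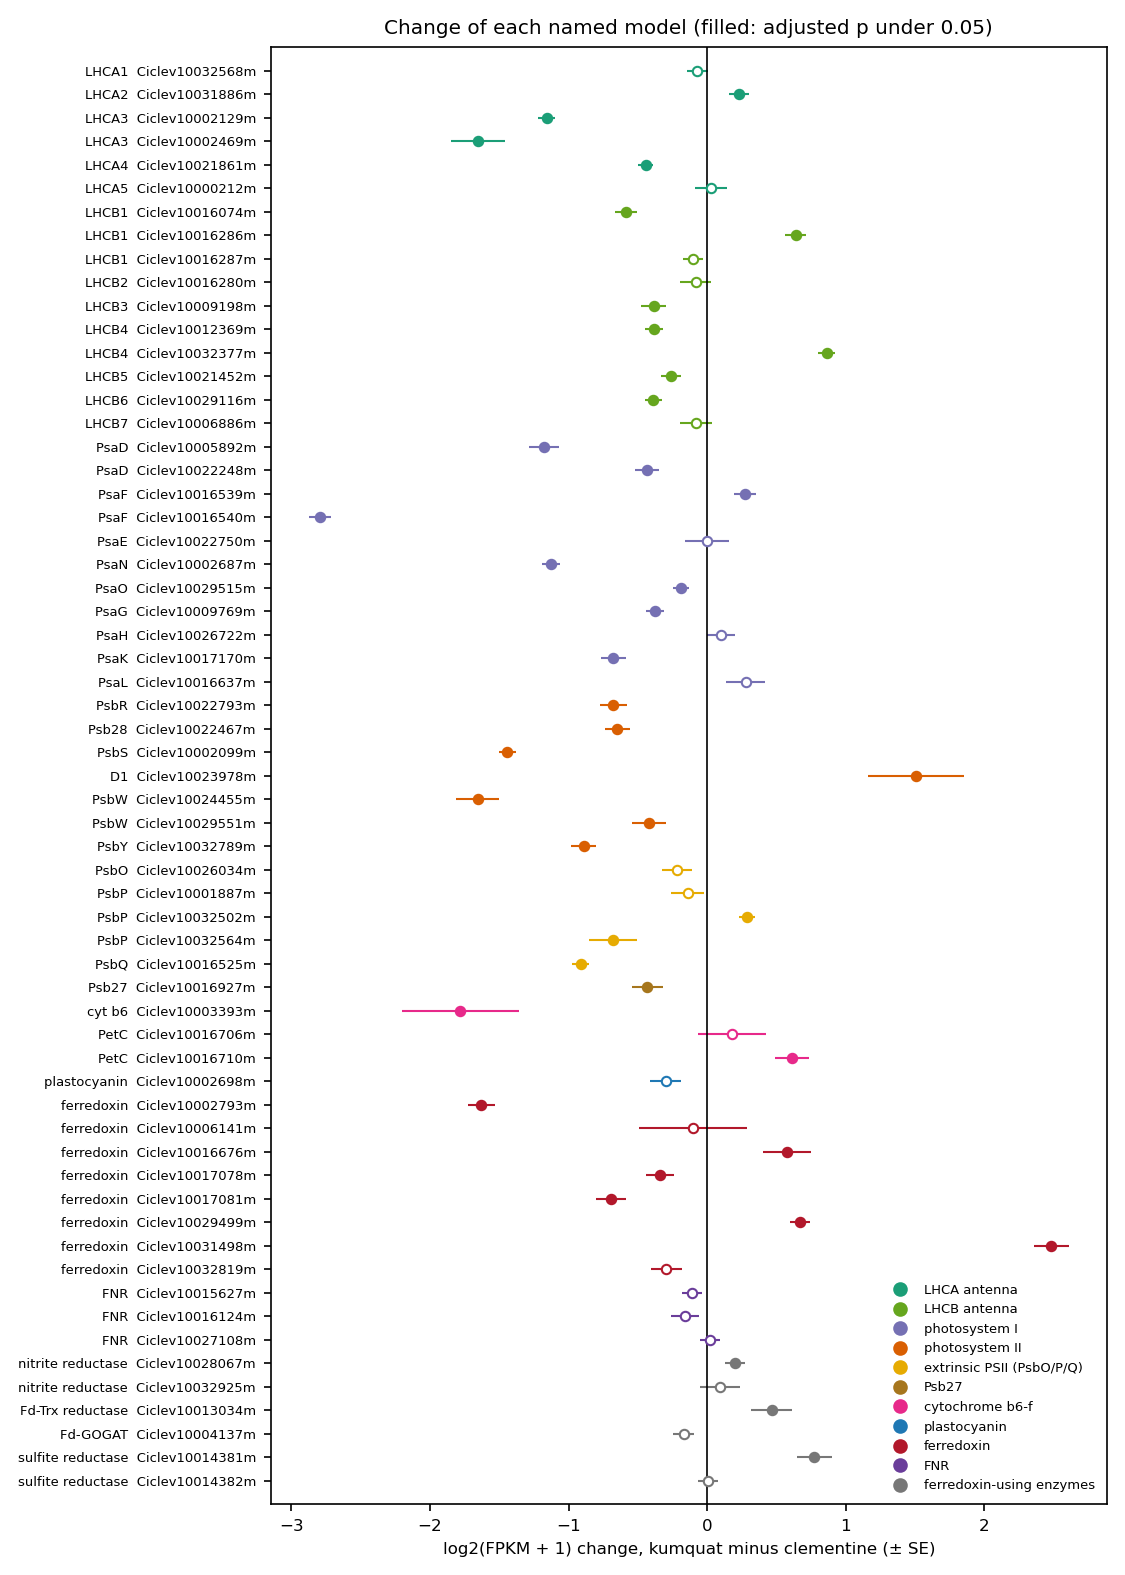
Log2(FPKM + 1) change, kumquat minus clementine (x axis), of the 61 members named by rule (rows, grouped by role), with bars for the SE and filled points for limma adjusted p under 0.05. Photosystem II points lie left of 0 except D1, antenna and ferredoxin points lie on both sides, and the FNR points are open near 0.

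With models of the same KEGG name summed, 42 of 44 names were tested, and 21 were lower, 6 higher and 15 not called. Of all 9129 features in that fit 28.3% were lower and 30.5% higher. The median log2 change was -0.20 for the names of the members and 0.02 for all features. By at least 2-fold, 4 names were lower (LHCA3, PsaN, PsbS and cytochrome b6) and 1 higher (D1), against 10.3% and 9.10% of all features. Higher names were LHCA2, PsbP, PetC, D1, ferredoxin-thioredoxin reductase and sulfite reductase.

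Of the members, 49 shared the locus of their best match with another member, over 19 loci, and fragments of such models may be split between them by assignment. Summed by locus, 31 of 70 tested loci were lower and 11 higher, where 30.0% and 34.4% of all loci were. In 2 of these loci, PsaF and a ferredoxin, single models were called in opposite directions. Between loci, 8 KEGG names had at least 2 loci with a mean of 10 FPKM or more in a species. In 4 of the 8, LHCB1, LHCB4, PsbP and ferredoxin, 1 locus was called lower and another higher. That was so in 42.8% of all 1702 KEGG names with at least 2 loci at this level, and in 36.0% of the 1504 with at most 7 loci, the most in a name of the members. Families and pairs were singled out after their values were seen, and the differences between copies were not tested.

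**Figure D5:**
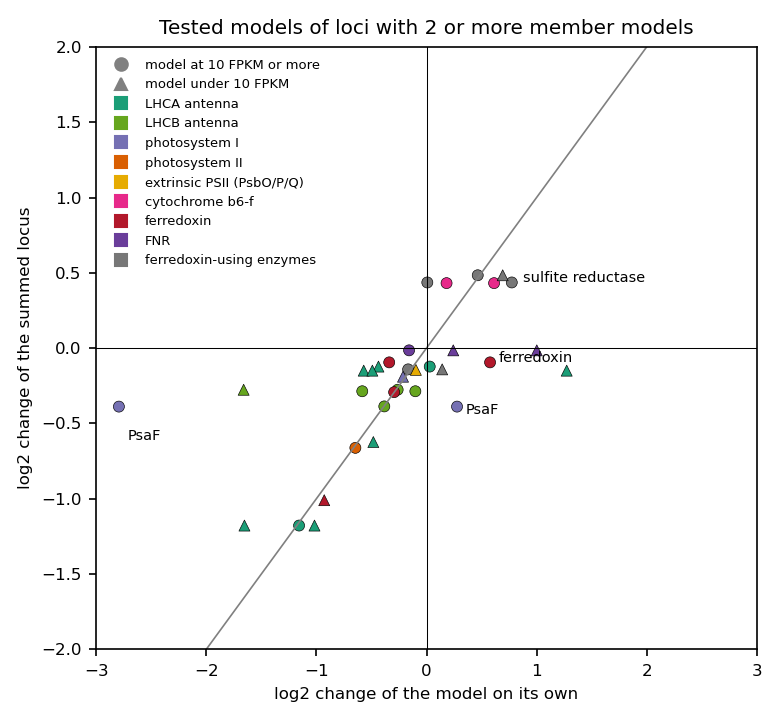
Log2 change of the 34 tested models that share a locus with another member (x axis) against the log2 change of the summed locus (y axis), with the line of equal values in grey. Circles are models with a mean of 10 FPKM or more in a species and triangles lower models; the PsaF models sit at -2.80 and 0.28 for a sum at -0.39.

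Other genes of photosynthesis were taken from lists of name patterns, whose counts are to be read beside the 27.1% lower and 29.9% higher among all models. For chlorophyll synthesis the pattern matched 70 models, of which 34 had beta-glucosidase and 16 a zinc finger protein as first name, and of 42 tested 11 were lower and 16 higher (26.2% and 38.1%, median log2 change 0.12). Its most abundant higher model was a beta-glucosidase, Ciclev10020728m, at 48.5 ± 8.11 FPKM in clementine and 86.4 ± 5.79 in kumquat (± SD over 3 libraries). By the first name alone, a choice made after seeing the data, the list is narrower. It then held 14 tested models, with 7 calls lower and 1 higher (median log2 change -0.45). The sum over all 16 models of the narrower list was 1035, 1019 and 1027 FPKM in clementine and 797, 800 and 810 in kumquat. The same narrowing was made for 2 lists described below. Chlorophyll breakdown then had 4 lower and 6 higher of 14 tested models, and carbon fixation 8 lower and 5 higher of 15. The narrower lists were not cleared of models that reached 1 FPKM in 1 species alone. Geranylgeranyl reductase, Ciclev10020061m, which makes the phytol tail of chlorophyll, was at 173, 159.8 and 168 FPKM in clementine and 117, 110.5 and 114 in kumquat (log2 change -0.54, SE 0.0521, limma adjusted p = 9.53e-05). A divinyl chlorophyllide reductase, Ciclev10028591m, was higher, at 20.0, 16.8 and 17.3 and at 38.7, 39.1 and 37.5 FPKM (log2 change 1.05, SE 0.0823, limma adjusted p = 3.37e-05).

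The list of chlorophyll breakdown had 17 tested models, with 5 calls lower and 8 higher (29.4% and 47.1%, median log2 change 0.36). Its sum went the other way, at 599.6, 601 and 616 FPKM in clementine and 482, 481 and 497 in kumquat, lower in every kumquat library. A chlorophyllase, Ciclev10021095m, which removes the phytol tail, was at 351, 345 and 354 FPKM in clementine and 158, 168 and 178 in kumquat (log2 change -1.06, SE 0.056, limma adjusted p = 5.04e-06). It was the only model of the list with a mean of 100 FPKM or more in a species. This model differed by more FPKM than the list sum did, so the other models of the list together were higher in kumquat. Pheophorbide a oxygenase, which opens the chlorophyll ring, was higher in Ciclev10028147m, at 34.2, 37.1 and 37.9 and at 59.93, 61.04 and 63.16 FPKM (log2 change 0.74, SE 0.0618, limma adjusted p = 4.75e-05). In carbon fixation 10 of 22 were lower, 7 higher and 5 not called (45.5% and 31.8%, median -0.21), and the sums overlapped, at 1851, 2005 and 1949 FPKM in clementine and 1724, 1901 and 1965 in kumquat. NADP-dependent glyceraldehyde-3-phosphate dehydrogenase of the Calvin cycle had a lower model, Ciclev10015476m, with 174 ± 9.64 and 83.8 ± 2.14 FPKM, and a higher one, Ciclev10001114m, with 111 ± 10.1 and 139 ± 16.7 (± SD over 3 libraries; limma adjusted p = 6.03e-06 and 0.0355).

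The list of light stress and assembly held 34 models, 27 of them named FtsH, a protease that in chloroplasts clears damaged photosystem II. The name alone does not place a model in the chloroplast. Of its 23 tested models, 3 reached 1 FPKM in 1 species alone, and all 3 were called. With them 5 models of this list were lower and 7 higher (21.7% and 30.4%, median 0.28), and the list without them is given below. Its most abundant higher model, the FtsH Ciclev10014471m, was at 133, 139 and 139.5 FPKM in clementine and 279, 287 and 260.1 in kumquat (log2 change 1.00, SE 0.0548, limma adjusted p = 5.86e-06), and its most abundant lower one, the FtsH Ciclev10024860m, had 30.7 ± 0.776 and 23.1 ± 0.737 FPKM. A list of plastid transcription regulators was searched by the names GLK, golden2-like and sigma factor. Of its 10 tested models, 3 were lower and 2 higher (30% and 20%, median 0.10). The most abundant of each were Ciclev10004760m, with 20.9 ± 0.513 FPKM in clementine and 15.997 ± 1.201 in kumquat, and Ciclev10033747m, with 4.60 ± 1.17 and 10.06 ± 0.832 (± SD over 3 libraries; limma adjusted p = 0.00711 and 0.00197). In the list of chloroplast ATP synthase and NDH complex, 3 of 7 tested models were lower and 0 higher, but 2 of the 3, which have identical values, reached 1 FPKM in clementine alone, so the count carries no weight. Models that reached 1 FPKM in 1 species alone had to differ. Without them 10 of 38 chlorophyll synthesis models were lower and 13 higher, 4 of 16 breakdown models were lower and 8 higher, and 2 of 20 models of light stress and assembly were lower and 7 higher. Of all 20289 models left by the same exclusion, 5029 were lower and 5843 higher.

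Seed tissue is another part of a pooled fruit. Its list matched 3 models, all higher in kumquat by at least 2-fold and none listed at 0. They summed to 644 to 808 FPKM in clementine and 2468 to 2971 in kumquat, nearly all of it from Ciclev10006308m, matched to the late embryogenesis abundant protein Lea5. A model matched to a vicilin-like seed storage protein, Ciclev10027019m, was at 32.3, 30.1 and 29.4 FPKM and at 83.0, 85.8 and 80.8. Proteins of both kinds also occur outside seeds. The part of seed tissue in the levels of the photosynthesis genes was not tested.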

How the data were processed

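Fruit RNA-seq libraries of Clementine mandarin and kumquat, 3 per species, were grouped by the labels. The deposited table gives FPKM per gene model in 6 columns with GO terms, a KEGG name and a best protein match, per the file headers. In their processing notes the submitters named HISAT, StringTie and DESeq2, without roles or versions. No genome build is given in the sources used here, and no coordinates are printed. FPKM summed to 691560 to 707892 per library. Sequencing depth is unknown, so no counting interval is given.

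Models that reached 1 FPKM in 3 or more libraries were fitted as log2(FPKM + 1) with limma 3.58.1 (trend) in R 4.3.3, kumquat minus clementine, two-sided, with Benjamini-Hochberg adjustment over all models and calls under 0.05. SD is over n = 3 libraries of a species. SE is the moderated standard error of the log2 change from limma, with 3 libraries per species. In it the variance of a model is drawn toward that of models at a similar level. The median SE was 0.076 for members with a mean of 100 FPKM or more, 0.111 between 10 and 100, and 0.329 below. The code was tested on simulated data. Alternatives were a pseudocount of 0.1, no filter, a filter of 5 FPKM, median scaling, a replicate block, each library left out, and FPKM summed by protein match or KEGG name. Sums by locus, leaving out both libraries numbered 1 and lists by first KEGG name were chosen after seeing the data. The members and lists were chosen with earlier results of these data known. Models below the named levels are given as counts and ranges. Of the other lists, the most abundant called model in each direction is named, except in the NDH list, where it passed the filter through clementine alone, and a further one is named for chlorophyll synthesis by first KEGG name.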

Additional observations from a re-analysis of the deposited data

How the results depend on the processing

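Counts under another pseudocount, another filter, median scaling, sums by protein match or locus, and without both libraries numbered 1 were within 1.5 times those reported. Summing by KEGG name, which by construction leaves fewer features, gave 21 lower and 6 higher, with 4 and 1 at 2-fold. Leaving out single libraries gave 27 to 34 lower, 8 to 15 higher, 10 to 12 lower at 2-fold and 2 to 3 higher at 2-fold. The higher calls were 9 without clementine replicate 1, 8 without clementine replicate 2 and 9 without kumquat replicate 3, and the cause was not tested. The ratio of the summed levels was 0.828 to 0.880 in the same fits. By first KEGG name the chlorophyll synthesis list had 7 lower and 1 higher, since most of its other models carry other first names. The labels do not say whether replicate numbers pair the libraries. Deviation correlations between libraries of the same number were low (0.119, 0.042 and 0.066). Each library still correlated best with its own number, a hint from the data and not the design. With a replicate block 36 members were lower and 15 higher, where 6172 and 6772 of all 22050 models were, with all 33 and 14 called without it among them.

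Log2 changes of opposite sign arose for values near 0 or where sums merged models. Summing by KEGG name gave -0.137 for Ciclev10000212m, -0.082 for Ciclev10016286m, -0.066 for Ciclev10032377m, -0.389 for Ciclev10016539m, 0.245 for Ciclev10001887m and Ciclev10032564m, -0.398 for Ciclev10016676m, Ciclev10029499m and Ciclev10031498m, and -0.047 for Ciclev10027108m. Summing by protein match or locus gave -0.123 for Ciclev10000212m, -0.389 for Ciclev10016539m and -0.095 for Ciclev10016676m. Median scaling gave -0.003 for Ciclev10000212m, -0.011 for Ciclev10027108m and -0.026 for Ciclev10014382m. Without both libraries numbered 1, Ciclev10022750m was at 0.074 and Ciclev10014382m at -0.075. Leaving out single libraries gave ranges of -0.079 to 0.102 for Ciclev10000212m, -0.168 to 0.019 for Ciclev10016280m, -0.104 to 0.178 for Ciclev10022750m, -0.419 to 0.293 for Ciclev10006141m, -0.036 to 0.069 for Ciclev10027108m, -0.002 to 0.216 for Ciclev10032925m and -0.039 to 0.05 for Ciclev10014382m, none of them called with all libraries.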
